A study of Homo sapiens with 9 samples.

Results

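A group of 10 antioxidant genes was followed in HT-29 cells, a human colorectal carcinoma line, after exposure to the bacterial products ADP-heptose and flagellin. They are the superoxide dismutases SOD1 and SOD2, the transcription factor gene NFE2L2, which encodes NRF2, and 7 genes that NRF2 is known to control, HMOX1, NQO1, GCLC, GCLM, TXNRD1, SRXN1 and FTH1. The members were chosen by gene symbol, each identifier once, and make up 10 of 62710 genes in the count table. The symbol column named 9 of them, and SOD2 was found by its identifier ENSG00000291237, which has no symbol in the table. Poly(A)-enriched RNA was sequenced from 9 libraries, 3 of non-stimulated cells, 3 of cells stimulated with 500 ng/mL flagellin and 3 of cells stimulated with 500 ng/mL ADP-heptose. All cells carried the wild-type genotype of the line, and stimulation lasted 2.5 h. The study used this experiment to compare the response to ADP-heptose, a sugar nucleotide of Gram-negative bacteria that activates the kinase ALPK1 in the cytosol, with that to flagellin, the bacterial protein sensed by the surface receptor TLR5.

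Superoxide dismutases turn superoxide into hydrogen peroxide, SOD1 mainly in the cytosol and SOD2 in the mitochondrial matrix. NRF2 is held at a low level by KEAP1, which hands it to a ubiquitin ligase for degradation, and it accumulates in the nucleus when oxidants or electrophiles modify KEAP1. There it pairs with small MAF proteins on the antioxidant response element and switches on genes for glutathione synthesis, the thioredoxin system, quinone reduction and iron storage. SOD2 is also a well-known target of the transcription factor NF-κB, which both stimuli are known to activate.

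Totals were 30770448 to 38304035 counts in the flagellin and non-stimulated libraries and 50054773 to 58272772 in the ADP-heptose libraries. The 10 members had from 188 counts (SRXN1) to 106859 counts (FTH1) in a library. ADP-heptose replicate 3 stood apart. The SD of the log2 differences between libraries over 11040 genes was 0.35 and 0.36 between it and the other ADP-heptose libraries, 0.10 between those 2, and 0.12 to 0.16 within the other groups. The deviation of its log2 values from the mean of the other 2 ADP-heptose libraries had a Pearson r of −0.53 with log2 exon length. With GC content the r was 0.44, both over 10942 genes, which share the same libraries. In the other groups, the r reached −0.39 with length (non-stimulated replicate 2) and 0.45 with GC content (flagellin replicate 1). Values without ADP-heptose replicate 3 are given for the members. Epithelial markers were present, with EPCAM at 914.0 to 1032 CPM (here counts scaled to a common library total) and KRT20 at 541.5 to 677.6 CPM, but the intestinal genes CDX2 and CDX1 did not exceed 1.397 and 0.2365 CPM. Of 11 markers of blood, stromal and endothelial cells, 4 had no count in any library and only LYZ and COL1A1 exceeded 1 CPM. KRT20 (log2 fold change 0.40, edgeR adjusted p 9.4e-04) and COL1A1 (0.41, adjusted p 0.03113) were higher after ADP-heptose and LYZ was not (−0.0029, adjusted p 0.9829), and their part in the results was not tested. The 10 colon markers summed to 11000 CPM in ADP-heptose replicate 3 and to 8340 to 8689 CPM in the other libraries.

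Promoter sequences are shown for SOD2 and for TXNRD1 and GCLM. In the latter, an antioxidant response element core was found within 250 bases before a start. RefSeq (GRCh38.p14) gave start sites for 7 of the 10 members, with 12 windows of 250 bases before a start. SOD1, HMOX1 and FTH1 had no entry, and sequence further from the starts was not searched. Motifs were searched on both strands, the antioxidant response element core TGACNNNGC, the AP-1 site TGANTCA and the κB consensus. The core was found in 3 of the 12 windows, 1 of GCLM and 2 of TXNRD1. It is held by 10.9% of 35116 promoter windows of the same length. It was not found in the windows of SOD2, NFE2L2, SRXN1, NQO1 or GCLC, of which SOD2, NFE2L2 and SRXN1 were called after ADP-heptose. Among these, only a SOD2 window is shown. AP-1 was found in 0 of 12 windows (6.57% of all windows) and the κB consensus in 0 of 12 (9.96% of all windows), so these letters are absent from the windows searched, including all 4 windows of SOD2. No match of the core overlapped an AP-1 match. The sequences are written 5′ to 3′ on the strand of the gene, in lower case, with the core or its reverse complement in capitals. The SOD2 window is the one before the most downstream of its 4 starts.

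SOD2, chr6:159693242-159693491, minus strand: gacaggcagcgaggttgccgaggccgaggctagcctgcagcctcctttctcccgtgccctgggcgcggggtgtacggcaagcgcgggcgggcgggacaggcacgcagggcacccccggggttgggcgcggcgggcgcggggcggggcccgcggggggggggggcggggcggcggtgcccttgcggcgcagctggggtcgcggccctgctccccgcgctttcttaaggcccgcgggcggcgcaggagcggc
GCLM, chr1:93909431-93909680, minus strand, core at −34 from the start: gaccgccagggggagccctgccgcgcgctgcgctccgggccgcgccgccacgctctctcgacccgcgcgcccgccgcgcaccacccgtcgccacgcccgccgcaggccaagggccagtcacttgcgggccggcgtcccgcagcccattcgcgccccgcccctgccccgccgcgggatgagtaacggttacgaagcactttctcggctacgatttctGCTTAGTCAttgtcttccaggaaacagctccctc
TXNRD1, chr12:104215529-104215778, plus strand, core at −99: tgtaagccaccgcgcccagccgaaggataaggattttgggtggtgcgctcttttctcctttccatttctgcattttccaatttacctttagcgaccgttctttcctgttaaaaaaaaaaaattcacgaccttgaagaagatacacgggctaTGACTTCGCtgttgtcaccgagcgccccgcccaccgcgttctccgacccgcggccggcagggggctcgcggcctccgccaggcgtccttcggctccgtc
TXNRD1, chr12:104286782-104287031, plus strand, core at −102: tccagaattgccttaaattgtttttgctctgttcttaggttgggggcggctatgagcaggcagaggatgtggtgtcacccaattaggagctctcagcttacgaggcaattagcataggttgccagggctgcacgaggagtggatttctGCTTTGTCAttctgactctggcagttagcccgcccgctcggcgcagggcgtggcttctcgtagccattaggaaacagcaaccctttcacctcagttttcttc

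ADP-heptose raised SOD2 3.8-fold, and raised NFE2L2 1.59-fold and TXNRD1 1.56-fold. SRXN1 was 1.42 times as high after ADP-heptose, a call near the threshold that was lost in 14 of 17 alternative settings. After flagellin, SOD2 alone was called among the 10 genes, at 1.58-fold. SRXN1 was 1.26 times as high after flagellin (edgeR unadjusted p 0.04701) but was not called. GCLC and GCLM of glutathione synthesis and the classical NRF2 targets HMOX1 and NQO1 were 1.13 to 1.2 times the non-stimulated level after ADP-heptose. They did not pass the test with all libraries, but GCLC and GCLM passed it without ADP-heptose replicate 3. A gene was called at an adjusted p under 0.05 in edgeR's quasi-likelihood F test over all 17412 genes tested. All 10 members passed the filter on low counts.

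After ADP-heptose, 4 of the 10 members were called higher, against 7.48% of all genes tested. None was called lower by edgeR or by DESeq2, against 4.42% of all genes. At an unadjusted p under 0.05, edgeR gave 8 members higher, against 13.4% of all genes, and 0 lower, against 11.5%. The 3 ADP-heptose libraries all lay above the 3 non-stimulated libraries for 8 members, against 15.4% of all genes, and overlapped them for SOD1 and GCLM. The median log2 fold change was 0.25 over the members and 0.01 over all genes. After flagellin, 1 member was called higher, against 0.368% of all genes, and 0 lower by either tool, against 0.0115%. At an unadjusted p under 0.05, 2 members (SOD2 and SRXN1) were higher and 0 lower, against 2.73% and 1.06% of all genes. The 3 flagellin libraries lay above the non-stimulated ones for SOD2, TXNRD1 and SRXN1, against 7.66% of all genes. Between the stimuli, edgeR called 3 members higher after ADP-heptose (SOD2, NFE2L2 and TXNRD1), against 5.40% of all genes, and DESeq2 called 4, with GCLC added (0.25, DESeq2 adjusted p 0.03831, edgeR adjusted p 0.06359). Neither tool called a member lower, against 2.76% of all genes in edgeR. Of the members, 7 were higher and 0 lower between the stimuli at an unadjusted p under 0.05, against 11.7% and 9.48% of all genes, and the ADP-heptose libraries lay above the flagellin libraries for 7 members, against 14.2% of all genes. The 3 comparisons share libraries in pairs.

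**Figure D1:**
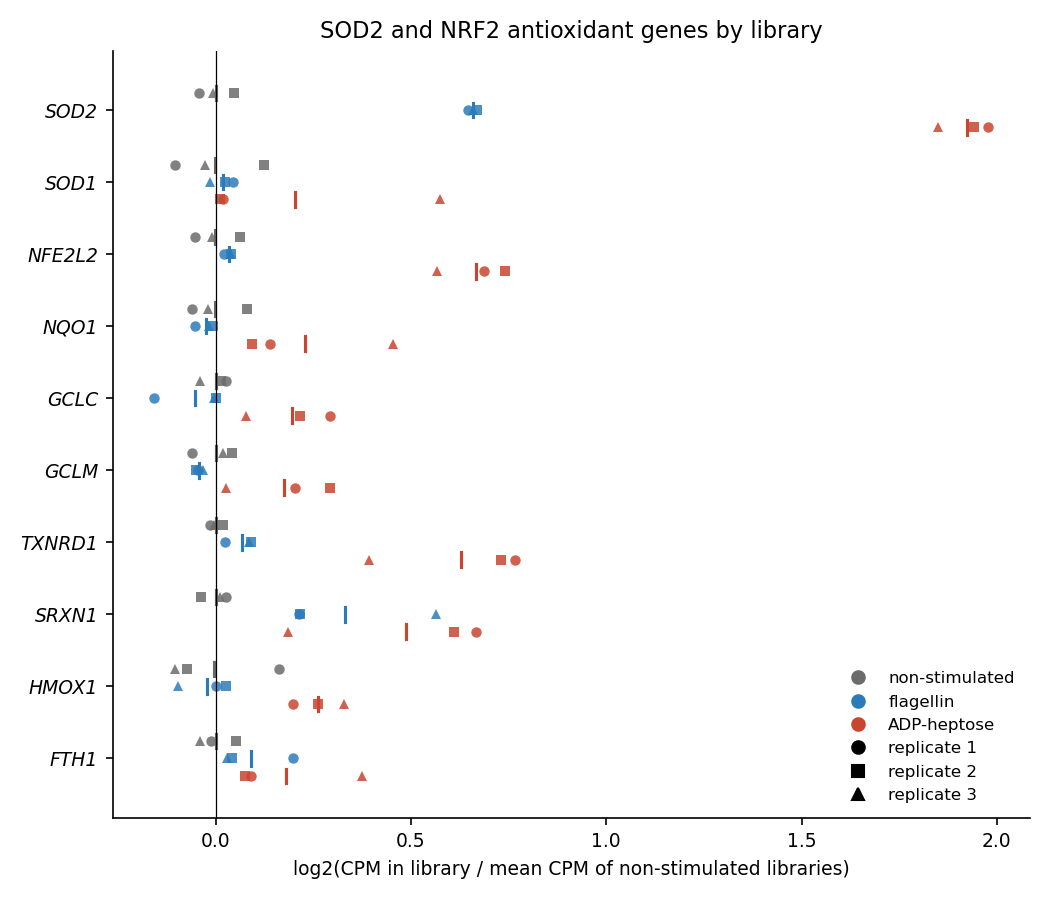
Each point is 1 library, plotted as the log2 ratio of its CPM to the mean CPM of the 3 non-stimulated libraries (x axis) for each of the 10 genes (y axis), coloured by treatment and shaped by replicate, with a bar at the mean of the log2 values of each group. SOD2 is separated in all 3 groups, NFE2L2 is separated after ADP-heptose only, and the TXNRD1 points after flagellin lie just above those without stimulation. Replicate 3 (triangles) lies furthest from the other ADP-heptose libraries for SOD1, SRXN1, TXNRD1, NQO1 and FTH1.

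SOD2 lies on the minus strand of chromosome 6, from 159669057 to 159762529 in GENCODE release 29 (GRCh38), where it is listed under 2 older identifiers. It had 90.89, 96.78 and 93.25 CPM (from here on of effective library size) without stimulation, 146.6, 149 and 147.9 CPM after flagellin, and 368.8, 359.9 and 337.4 CPM after ADP-heptose. The 3 groups did not overlap, with flagellin between the other two. The level was 93.64 ± 2.96 CPM without stimulation, 147.8 ± 1.18 CPM after flagellin and 355.4 ± 16.2 CPM after ADP-heptose (SD, n = 3 each). ADP-heptose gave a log2 fold change of 1.92 (SE 0.06, 95% confidence interval 1.78 to 2.07, edgeR adjusted p 9.9e-10). Flagellin gave 0.66 (SE 0.06, interval 0.52 to 0.80, adjusted p 2.1e-04). SOD2 was 2.4 times as high after ADP-heptose as after flagellin (log2 fold change 1.27, SE 0.06, interval 1.13 to 1.40, adjusted p 5.5e-08). In RNA of whole cultures, a change in the number of cells of a kind and a change in RNA per cell cannot be told apart.

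Exons of SOD2 overlap those of WTAP and ACAT2 on the opposite strand, and since the strandedness of the counting is not stated, reads shared by the genes cannot be told apart. WTAP, a subunit of the RNA methyltransferase complex that writes N6-methyladenosine, had 64.47, 69.21 and 65.68 CPM without stimulation, 64.51, 62.75 and 65.54 CPM after flagellin and 84.06, 85.98 and 92.92 CPM after ADP-heptose. Its libraries separated after ADP-heptose (log2 fold change 0.40, edgeR adjusted p 0.001870) and overlapped after flagellin (−0.05, adjusted p 1). ACAT2, a cytosolic acetyl-CoA acetyltransferase, did not pass the test after ADP-heptose (0.15, adjusted p 0.2620) or flagellin (0.09, adjusted p 1).

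The 5 genes most like SOD2 over the 9 libraries, by the Pearson r of log2 CPM among 12158 genes, were SDC4 (r 0.999), CX3CL1 (0.998), ZC3H12A (0.997), IFNGR1 (0.997) and CXCL3 (0.996). SDC4, a cell surface proteoglycan, had mean levels of 87.31, 214.7 and 1204 CPM in the non-stimulated, flagellin and ADP-heptose libraries. IFNGR1, a chain of the interferon gamma receptor, had 120.7, 176.2 and 400.3 CPM. CX3CL1 and CXCL3 encode chemokines, and ZC3H12A encodes an RNase that degrades messages of inflammation. The 5 genes were chosen for their likeness to SOD2, so sharing its order is not a separate result. Each had the lowest mean level without stimulation and the highest after ADP-heptose. These values describe 9 points in 3 groups.

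SOD1, on chromosome 21 (31659622 to 31668931, plus strand), encodes the cytosolic enzyme and behaved differently. It had 147.0, 172.3 and 155.1 CPM without stimulation, 162.9, 160.8 and 156.6 CPM after flagellin, and 160.2, 159.4 and 235.6 CPM after ADP-heptose. The groups overlapped, and only ADP-heptose replicate 3 lay above the range of the other libraries. The log2 fold change was 0.23 after ADP-heptose (interval −0.06 to 0.51, edgeR adjusted p 0.3067), 0.02 after ADP-heptose without its replicate 3 (adjusted p 0.8663), and 0.02 after flagellin (interval −0.27 to 0.30, adjusted p 1). The extracellular enzyme SOD3 did not pass the test after ADP-heptose either (0.23, adjusted p 0.3331).

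NFE2L2, on chromosome 2 (177227595 to 177392697, minus strand), encodes the transcription factor on which the other NRF2 genes depend. Its message had 220.9, 239.4 and 227.7 CPM without stimulation, 232.8, 235.4 and 235.5 CPM after flagellin, and 369.3, 383.4 and 339.8 CPM after ADP-heptose. The ADP-heptose libraries lay above all others, whereas the flagellin libraries fell within the range of the non-stimulated ones. The log2 fold change was 0.67 after ADP-heptose (SE 0.07, interval 0.52 to 0.81, edgeR adjusted p 2.5e-05) and 0.03 after flagellin (interval −0.11 to 0.18, adjusted p 1), and the direct comparison of the stimuli gave 0.63 (SE 0.07, adjusted p 5.5e-05). Exons of NFE2L2 overlap those of AGPS on the opposite strand, which did not pass the test (−0.21 after ADP-heptose, adjusted p 0.2029). RNA of NFE2L2 was measured here, and the protein, which is mainly controlled by degradation, was not.

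TXNRD1, on chromosome 12 (104215779 to 104350305, plus strand), encodes the cytosolic thioredoxin reductase, which uses NADPH to regenerate thioredoxin. It had 448.9, 459.5 and 451.5 CPM without stimulation, 460.4, 482.7 and 481.0 CPM after flagellin, and 770.3, 751.4 and 594.6 CPM after ADP-heptose. All ADP-heptose libraries were above the rest, with replicate 3 the lowest of them, and the flagellin libraries exceeded the non-stimulated ones by a narrow margin. The log2 fold change was 0.64 after ADP-heptose (SE 0.09, interval 0.44 to 0.84, edgeR adjusted p 5.4e-04), 0.07 after flagellin (interval −0.13 to 0.27, adjusted p 1) and 0.57 between the stimuli (SE 0.09, adjusted p 0.001618). The first was 0.75 without ADP-heptose replicate 3 (edgeR adjusted p 1.7e-15). EID3, a gene that lies within the span of TXNRD1 without sharing exons, rose from 0.7678, 0.6125 and 1.234 CPM to 5.954, 5.849 and 7.175 CPM after ADP-heptose (log2 fold change 2.85, edgeR adjusted p 1.1e-05).

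SRXN1, on chromosome 20 (646615 to 653370, minus strand), encodes sulfiredoxin, which repairs overoxidised peroxiredoxins. It was the member with the fewest counts, with 5.477, 5.234 and 5.419 CPM without stimulation, 6.235, 6.247 and 7.948 CPM after flagellin, and 8.539, 8.206 and 6.115 CPM after ADP-heptose. Both stimulated groups lay above the non-stimulated libraries and overlapped each other. After ADP-heptose the log2 fold change was 0.50 (SE 0.15, interval 0.18 to 0.83) with an edgeR adjusted p of 0.04751, a call that was lost in 14 of 17 alternative settings, among them leaving out any 1 library other than ADP-heptose replicate 3. After flagellin it was 0.34 (SE 0.15, interval 0.01 to 0.67, unadjusted p 0.04701, adjusted p 1), and between the stimuli 0.17 (interval −0.16 to 0.49, adjusted p 0.5604).

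GCLC (chromosome 6, 53497341 to 53616970, minus strand) and GCLM (chromosome 1, 93885205 to 93909456, minus strand) encode the catalytic and the modifier subunit of glutamate-cysteine ligase, the first enzyme of glutathione synthesis. GCLC had 183.9, 182.3 and 175.5 CPM without stimulation, 161.9, 180.6 and 180.0 CPM after flagellin, and 221.1, 209.7 and 190.5 CPM after ADP-heptose. GCLM had 78.91, 84.72 and 83.41 CPM, 79.85, 79.44 and 80.52 CPM, and 94.79, 100.9 and 83.84 CPM in the same order. The ADP-heptose libraries of GCLC were above all others, while replicate 3 brought the GCLM values into the range of the non-stimulated libraries. With all libraries, neither gene was called after ADP-heptose (GCLC 0.20, SE 0.07, edgeR adjusted p 0.1157, GCLM 0.18, SE 0.08, adjusted p 0.1684). Without ADP-heptose replicate 3, GCLC gave 0.26 (adjusted p 1.8e-04) and GCLM 0.25 (adjusted p 4.1e-04) and both were called, as they were after correction by length and GC offsets (0.27, adjusted p 0.003733, and 0.23, adjusted p 0.01084). Flagellin gave −0.05 for GCLC (interval −0.21 to 0.11) and −0.04 for GCLM (interval −0.21 to 0.12).

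NQO1 (chromosome 16, 69706996 to 69726951, minus strand) encodes a quinone reductase and HMOX1 (chromosome 22, 35380361 to 35394214, plus strand) encodes heme oxygenase 1, which opens heme to biliverdin, carbon monoxide and iron. NQO1 had 288.6, 318.2 and 296.8 CPM without stimulation, 290.3, 299.7 and 297.8 CPM after flagellin, and 331.8, 321.0 and 412.5 CPM after ADP-heptose. HMOX1 had 13.54, 11.50 and 11.24 CPM, 12.09, 12.32 and 11.30 CPM, and 13.87, 14.50 and 15.19 CPM in the same order. Each gene had all ADP-heptose libraries above the others, for NQO1 and HMOX1 by a margin smaller than the spread within the non-stimulated group. The log2 fold changes after ADP-heptose were 0.24 for NQO1 (interval 0.04 to 0.44, edgeR adjusted p 0.1267) and 0.26 for HMOX1 (interval 0.05 to 0.48, adjusted p 0.1166). They were 0.12 (edgeR adjusted p 0.06846) and 0.23 (adjusted p 0.1186) without ADP-heptose replicate 3. After flagellin they were −0.03 (interval −0.23 to 0.18) and −0.02 (interval −0.24 to 0.20). The 5 genes most like HMOX1 over the 9 libraries were LYSMD4 (r 0.956), G0S2 (0.952), CSNK1E (0.947), ST3GAL2 (0.947) and TAOK2 (0.942), all with lower r than the 5 genes most like SOD2.

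FTH1, on chromosome 11 (61959718 to 61967660, minus strand), encodes the ferritin heavy chain, which stores iron in an oxidised form. It had 1785, 1864 and 1748 CPM without stimulation, 2064, 1851 and 1836 CPM after flagellin, and 1916, 1894 and 2333 CPM after ADP-heptose. The ADP-heptose values were above the non-stimulated ones but within the range of flagellin for 2 of 3 libraries. Neither ADP-heptose (0.19, interval −0.02 to 0.39, edgeR adjusted p 0.2403) nor flagellin (0.09, interval −0.11 to 0.30, adjusted p 1) passed the test, and ADP-heptose gave 0.09 without its replicate 3 (adjusted p 0.2422). The count table lists 25 FTH1 pseudogenes, of which 15 had counts, together 0.947% to 1.32% of the counts of FTH1 in a library. How reads that map to several copies were counted is not stated, so the value of FTH1 is uncertain. The light chain gene FTL gave 0.22 after ADP-heptose (adjusted p 0.2866).

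**Figure D2:**
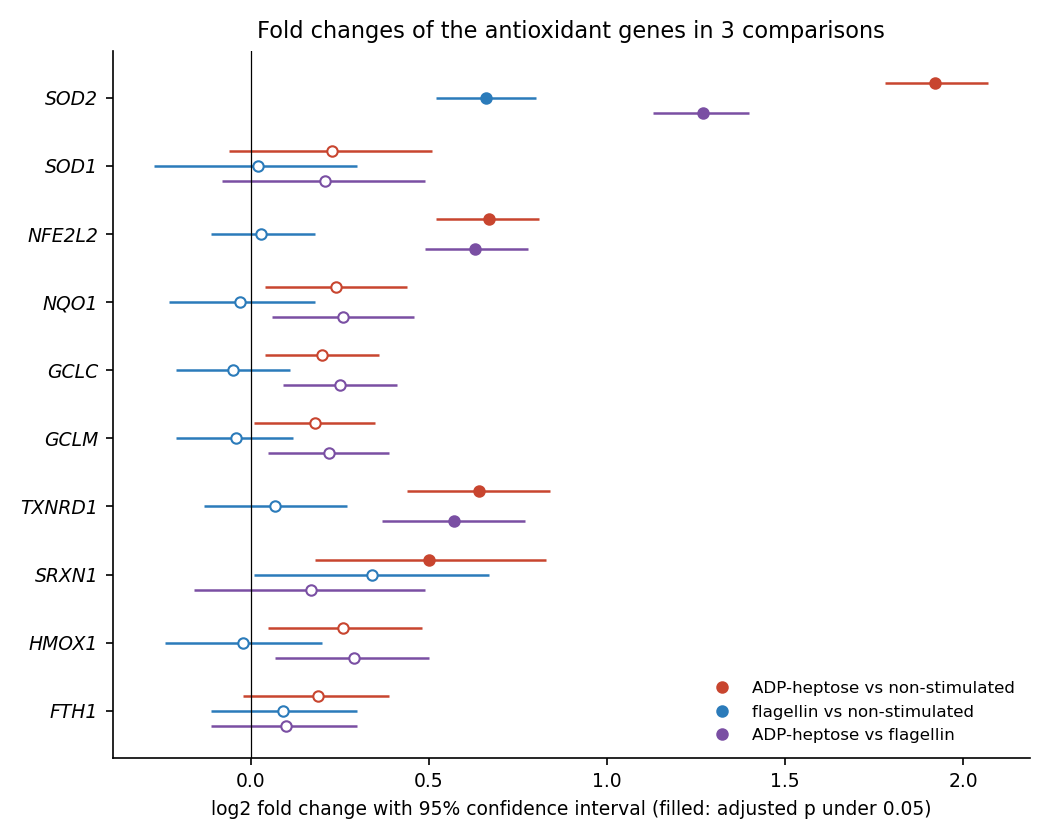
Log2 fold changes of the 10 genes (x axis, with 95% confidence intervals as bars) in the 3 comparisons, with filled points for an adjusted p under 0.05. SOD2 lies at 1.92, 0.66 and 1.27, NFE2L2 and TXNRD1 are filled for both comparisons with ADP-heptose, and SRXN1 is filled only for ADP-heptose against non-stimulated cells.

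Levels between genes were compared per kilobase of the median coding transcript. Without stimulation FTH1 was highest, with 2350 CPM per kilobase, followed by NQO1 (297), SOD1 (173), TXNRD1 (118), NFE2L2 (86.5), GCLC (51.2), GCLM (20.9), HMOX1 (6.64) and SRXN1 (1.99). FTH1 and SRXN1 were also at the ends of the order when the length of all exons was used, with 886 and 1.99 CPM per kilobase. SOD2 had 94.5 CPM per kilobase of coding transcript but 5.14 per kilobase of all exons, because GENCODE release 29 gives the combined exons 18206 bases, so its rank is uncertain. With the coding length, the library ranges of neighbours in this order did not overlap without stimulation, and SOD2 stood between TXNRD1 and NFE2L2. After ADP-heptose it reached 359 CPM per kilobase, below FTH1 (2680) and next to NQO1 (350).

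ADP-heptose replicate 3 moved the members in both directions. Relative to the mean of replicates 1 and 2, its log2 values were 0.56 for SOD1, 0.34 for NQO1, 0.29 for FTH1 and 0.10 for HMOX1, and they were −0.42 for SRXN1, −0.36 for TXNRD1, −0.22 for GCLM, −0.18 for GCLC, −0.15 for NFE2L2 and −0.11 for SOD2. HMOX1 and SOD2 had the smallest shifts and SOD1 the largest. Over the 11040 genes used for the spread between libraries, 94.1% had a lower value than SOD1 and 11.2% a lower value than SRXN1. Without this library, 6 of the 10 members were called higher after ADP-heptose, against 11.2% of all genes in that fit, with GCLC and GCLM added to the 4 named above, and 6 were higher than after flagellin, against 1798 of the 17966 genes tested there, with GCLC, GCLM and NQO1 added to SOD2, NFE2L2 and TXNRD1. In that fit the log2 fold change after ADP-heptose was 1.96 for SOD2 (edgeR adjusted p 4.6e-26), 0.72 for NFE2L2 (adjusted p 1.7e-14) and 0.64 for SRXN1 (adjusted p 4.6e-04).

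Among 145 further genes in 9 redox lists, 128 were tested. Of these, 18 were called higher and 6 lower after ADP-heptose, against 7.48% and 4.42% of all genes. The edgeR calls of the single lists below compare with the same shares. Their counts at an unadjusted p under 0.05 compare with 13.4% higher and 11.5% lower of all genes. Their counts without ADP-heptose replicate 3 compare with 11.2% higher and 7.07% lower. After flagellin edgeR called 0 of the 128 higher or lower, with 2 higher and 0 lower at an unadjusted p under 0.05, and DESeq2 called 1 higher, SQSTM1, and 0 lower. The lists were not chosen independently of these data, and their counts are given as a description.

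Of the 17 regulators and partners of NRF2, 4 were called higher and 0 lower after ADP-heptose by edgeR and by DESeq2, with 8 higher and 1 lower at an unadjusted p under 0.05. Without ADP-heptose replicate 3 the number called higher was 9. MAFF, a small MAF protein that can pair with NRF2 but has no activating domain, had 31.53, 32.02 and 35.36 CPM without stimulation, 38.11, 36.85 and 36.03 CPM after flagellin, and 119.9, 120.5 and 117.4 CPM after ADP-heptose. Its ADP-heptose libraries stood far above the rest, with a log2 fold change of 1.86 (SE 0.07, edgeR adjusted p 3.2e-09). SQSTM1, the autophagy receptor p62 that binds KEAP1, had 500.6, 505.5 and 513.6 CPM, 630.2, 573.3 and 589.7 CPM, and 1478, 1446 and 1528 CPM in the same order. It was higher after ADP-heptose (1.55, SE 0.07, adjusted p 1.3e-08), and although its flagellin libraries also lay above the non-stimulated ones, flagellin did not pass edgeR's test (0.24, adjusted p 0.5078) but passed that of DESeq2 (0.24, adjusted p 0.03527).

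BACH1, which represses HMOX1 and other antioxidant response element genes, had 98.54, 93.66 and 100.2 CPM without stimulation, 101.0, 106.5 and 107.4 CPM after flagellin and 230.2, 230.3 and 167.8 CPM after ADP-heptose. The ADP-heptose libraries were again above all others, replicate 3 least (log2 fold change 1.10, SE 0.11, edgeR adjusted p 2.0e-05). The NRF2 relative NFE2L3 was also higher (0.37, adjusted p 0.005550), whereas KEAP1, the sensor that holds NRF2 down, was not called (0.14, adjusted p 0.3545). The messages of the activator NFE2L2 and of the repressor BACH1 both rose after ADP-heptose.

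**Figure D3:**
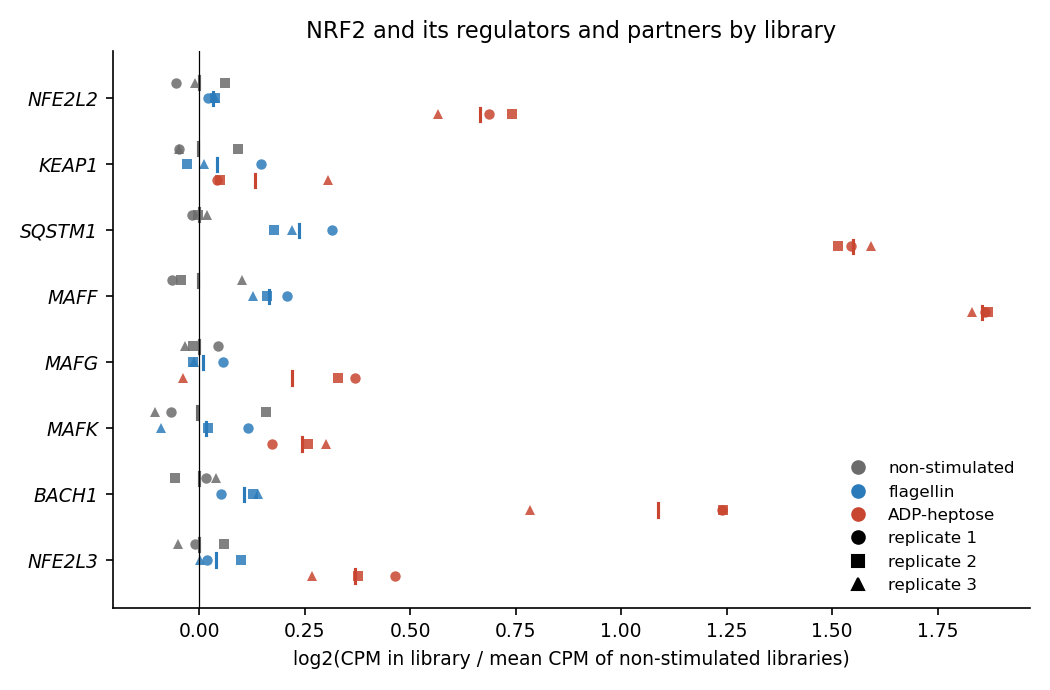
Each point is 1 library, plotted as the log2 ratio of its CPM to the mean CPM of the non-stimulated libraries (x axis) for NFE2L2 and 7 of its regulators, partners and relatives (y axis), coloured by treatment and shaped by replicate, with a bar at the mean of the log2 values. MAFF, SQSTM1 and BACH1 lie furthest to the right after ADP-heptose, with fitted log2 fold changes of 1.86, 1.55 and 1.10, and the 3 KEAP1 groups overlap.

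The glutathione list (22 of 23 tested) had 3 genes higher and 0 lower by either tool, with 5 higher and 0 lower at an unadjusted p under 0.05. CHAC1, an enzyme that degrades glutathione, had 54.72, 54.10 and 51.27 CPM without stimulation, 63.38, 57.78 and 54.87 CPM after flagellin and 107.4, 105.4 and 106.2 CPM after ADP-heptose (log2 fold change 0.99, SE 0.07, edgeR adjusted p 1.2e-06). SLC3A2 (0.58, adjusted p 0.002683) and SLC7A11 (0.51, adjusted p 0.01653), both chains of the cystine transporter that supplies glutathione synthesis, were also higher, and the SLC7A11 call held in 10 of 17 alternative settings. CHAC1 and both chains of the cystine transporter passed the test, while GCLC and GCLM did not with all libraries.

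Among 15 of 17 tested quinone, aldehyde and drug-metabolism targets of NRF2, 5 were higher and 0 lower by either tool, with 7 higher and 0 lower at an unadjusted p under 0.05. TRIM16L gave 0.95 on the log2 scale (edgeR adjusted p 2.9e-04), the growth inhibitor gene OSGIN1 0.88 (adjusted p 0.002018, and 0.64 without ADP-heptose replicate 3) and AKR1C1, an aldo-keto reductase, 0.83 (adjusted p 6.3e-05). AKR1C2 (0.37, adjusted p 0.03514) and AKR1B10 (0.30, adjusted p 0.03904) passed in the fit and in 10 and 9 of 17 alternative settings. The AKR1C genes are near-identical copies, so reads may be divided among them and their values are uncertain. Without ADP-heptose replicate 3, 1 gene of this list was called lower.

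Of 14 thioredoxin and glutaredoxin genes, 1 was higher and 3 lower. SESN2, a sestrin induced by stress, was higher (log2 fold change 0.82, edgeR adjusted p 2.0e-05), while the sestrins SESN1 (−0.79, adjusted p 2.1e-04) and SESN3 (−0.46, adjusted p 0.02610, a call kept in 12 of 17 alternative settings) and the thioredoxin-binding protein TXNIP (−0.33, adjusted p 0.003150) were lower. Thioredoxin itself, TXN, was not called (0.22, adjusted p 0.3407), in contrast to its reductase TXNRD1. The difference between these 2 genes was not tested.

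In the superoxide and peroxide list (18 of 19 tested), 1 gene was higher and 2 lower. The intestinal glutathione peroxidase GPX2 was higher (0.55, edgeR adjusted p 0.01329, past the threshold in 14 of 17 alternative settings, and 0.35 without ADP-heptose replicate 3), and GPX8 (−0.56, adjusted p 0.001615) and catalase, CAT (−0.24, adjusted p 0.03013), were lower. CAT, which like the glutathione peroxidases removes the hydrogen peroxide formed by superoxide dismutases, had 107.2, 107.5 and 105.9 CPM without stimulation, 101.5, 108.3 and 100.3 CPM after flagellin and 86.75, 92.84 and 92.05 CPM after ADP-heptose, with no overlap between ADP-heptose and the other groups. SOD2 and CAT messages moved in opposite directions, although the CAT call held in only 10 of 17 alternative settings.

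Heme and iron genes (17 of 18 tested) had 1 higher, ALAS1 (0.36, edgeR adjusted p 0.008140), the first enzyme of heme synthesis, and 1 lower, SLC40A1 (−0.66, adjusted p 2.0e-04), which encodes the iron exporter ferroportin. Without ADP-heptose replicate 3 the list had 2 higher and 2 lower. Of 9 tested among 17 oxidant-producing oxidase genes, NOX1 (0.32, adjusted p 0.008802), the NADPH oxidase of colon epithelium, and RAC1 (0.28, adjusted p 0.02106, past the threshold in 12 of 17 alternative settings), a GTPase that activates it, were higher in edgeR. DESeq2 called 3 genes higher, with CYBA added (0.48, DESeq2 adjusted p 0.02162), and neither tool called a gene lower, with 4 higher and 0 lower at an unadjusted p under 0.05. Of 11 genes of NADPH supply, MTHFD2 was higher (0.32, adjusted p 0.004059) and 0 were lower by either tool, with 3 higher and 0 lower at an unadjusted p under 0.05. Of the 9 metallothioneins, 5 were tested and edgeR and DESeq2 called 0, with 1 higher and 0 lower at an unadjusted p under 0.05, and these genes are near-identical copies whose reads may be divided. Without ADP-heptose replicate 3, 1 metallothionein was called lower.

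**Figure D4:**
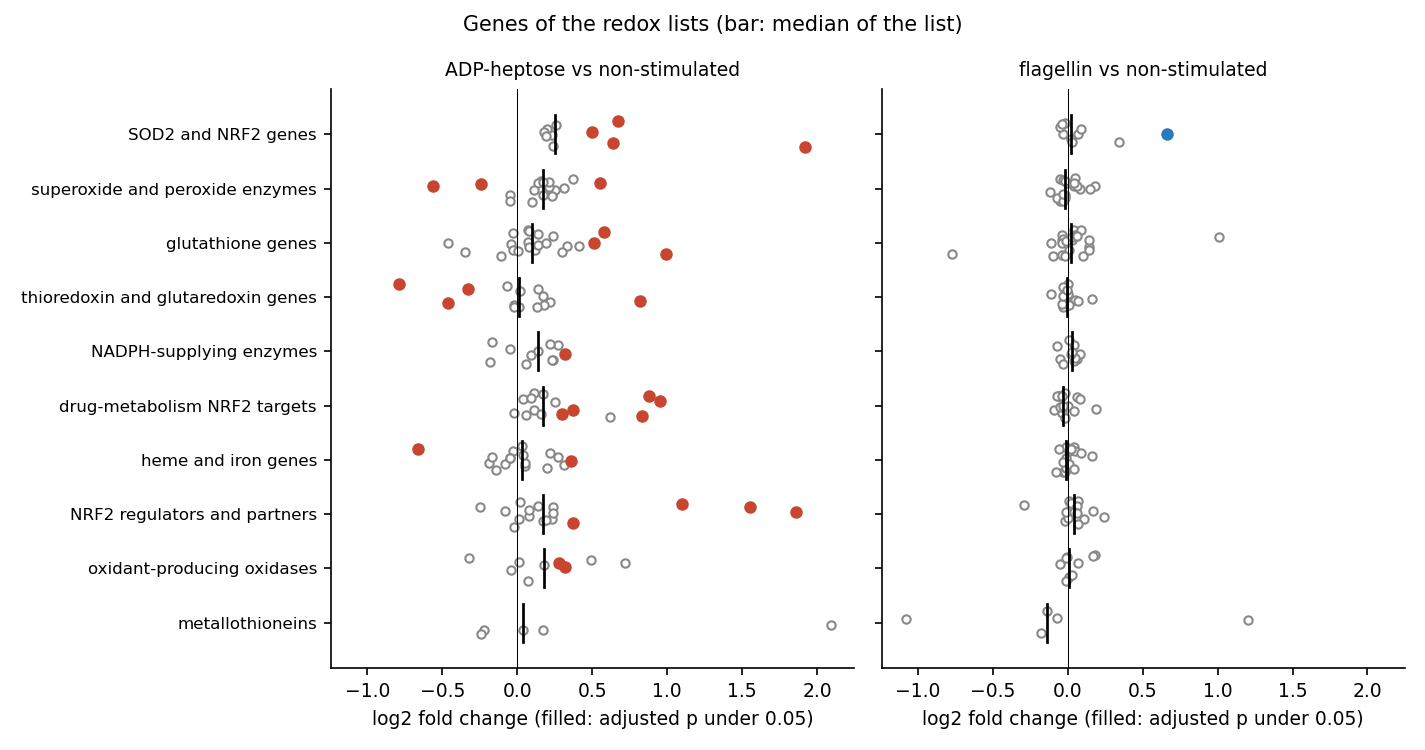
Log2 fold changes (x axis) of the tested genes of the member list and of 9 further redox lists (y axis), after ADP-heptose (left) and after flagellin (right), with filled points for an adjusted p under 0.05 and a bar at the median of each list. Among the 10 members 4 points are filled after ADP-heptose and 1, SOD2, after flagellin, and no gene of the other lists is filled after flagellin.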

How the data were processed

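RNA was selected for poly(A) tails and sequenced from both fragment ends. Per the submitters' processing notes, the authors used HISAT2 and featureCounts, and the deposited table gives raw counts for each gene and library. Versions, genome build, annotation and strandedness are not given in the sources used here. The table has 62972 lines, and 232 identifiers that recur in it with the same counts entered the analysis a single time. SOD2 was named through a reference table of identifiers. The labels do not say whether the 3 libraries of a group came from separate cultures, while the paper describes independent experiments.

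Counts were fitted in R 4.3.3 with edgeR 4.0.16 (TMM, filterByExpr, robust quasi-likelihood fit of all 9 libraries, group as the only term), with Benjamini-Hochberg adjustment over 17412 genes. CPM are counts scaled to a common effective library size. The square root of the common dispersion was 0.109. Alternatives were DESeq2 1.42.0, other size factors, library totals, other filters, fits of 6 libraries, a replicate block, length and GC offsets (splines with 4 degrees of freedom), a 2-fold rule and each library left out in turn. The list counts without ADP-heptose replicate 3 and with offsets were added after seeing the data. Lengths and positions are from GENCODE release 29 and promoters from RefSeq. Figures were drawn with matplotlib 3.10.9.

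Members and lists were chosen with earlier results of these data known. Genes were named by rule: all members, up to 3 called genes per direction, list and comparison, SOD3, CAT, KEAP1, FTL and TXN, the 5 genes most like SOD2 and HMOX1, and overlapping genes. NFE2L3, AKR1C2, AKR1B10, CYBA and the marker genes were named outside the rule, after their values were seen.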

Additional observations from a re-analysis of the deposited data

How the results depend on the processing

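SOD2 was called in all 3 comparisons under each of 17 alternative fits, with log2 fold changes of 1.79 to 2.02 for ADP-heptose against non-stimulated cells, 0.64 to 0.68 for flagellin and 1.15 to 1.34 between the stimuli. NFE2L2 and TXNRD1 were called in all 17 for both comparisons with ADP-heptose. With a 2-fold rule added, the number of members called higher was 1 for ADP-heptose, 0 for flagellin and 1 between the stimuli. Over all 17412 genes tested, that rule called 586, 39 and 409 in either direction. Leaving out 1 library gave 3 to 6 members higher after ADP-heptose and 3 to 6 between the stimuli, with 6 in both only without ADP-heptose replicate 3. Over all genes, those fits called 925 to 2018 higher after ADP-heptose and 677 to 1798 between the stimuli. Length and GC offsets gave 6 members higher between the stimuli, against 1160 of 17412 genes. The main fit gave 3 members and 940 genes. The SRXN1 call after ADP-heptose (0.38 to 0.64) was lost in 14 of 17 fits, with adjusted p from 4.6e-04 to 0.1529. Same-numbered libraries were not consistently alike (correlations of −0.46 to 0.30 between them, and 3 of 9 libraries most like their own number). These values were centred within each group of 3, and ADP-heptose replicate 3 stood apart. Whether the replicate numbers pair the libraries therefore stays undecided. With the replicate block, 3 members were higher after ADP-heptose, against 1064 of 17412 genes. In that fit SOD2 gave 1.92 after ADP-heptose (edgeR adjusted p 1.8e-07), 0.66 after flagellin (adjusted p 0.003557) and 1.26 between the stimuli. Of the calls of members, only that of SRXN1 changed. Values of uncalled members changed sign after flagellin for SOD1 (−0.00064 with offsets, −0.03 to 0.08 with 1 library left out), HMOX1 (−0.07 to 0.07 with 1 library left out) and NQO1 (−0.06 to 0.02 with 1 library left out), and between the stimuli for FTH1 (−0.03 with library totals and −0.03 with offsets). Library totals moved the median of all genes to −0.13 after ADP-heptose, with 917 genes higher and 1886 lower in place of 1302 and 770. The offsets gave 1397 higher and 1505 lower. The causes were not tested.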
